A study of Mus musculus with 12 samples.

Results

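The 78 genes described here encode proteins of the mitochondrial ribosome, the mitoribosome. They were the protein-coding genes whose GRCm38 symbol was Mrpl or Mrps followed by a digit and whose mean was 50 or more reads over the 12 libraries of the total RNA table, out of 30994 genes in that table. All 78 genes that matched by symbol met the minimum, the lowest being Mrps31 at a mean of 162 reads, so no gene lay just outside it. By symbol, 49 belonged to the large subunit (Mrpl) and 29 to the small subunit (Mrps). The study used SIM-A9, a mouse microglial cell line from strain C57BL/6, and SLAM-seq, in which RNA made in the presence of 4-thiouridine is chemically marked so that its reads can be told from those of older RNA. Every culture received 10 µM polymyxin B for 1 h. Cultures were then given either 10 µM of the compound C13, which the series title calls a MOK inhibitor, or its solvent DMSO for 1 h, followed by 5 µg/mL of TDP-43 aggregates or sham aggregates for 2.5 h. Labelling with 100 µM 4-thiouridine for the next 90 min brought the time with aggregates to 4 h. Each of the 4 combinations of drug and aggregate had 3 libraries, which the labels call biological replicates. Nothing states that they came from separate cultures, so p-values may measure only technical spread. Below, "aggregates" means TDP-43 aggregates. In all groups a single cell line was studied.

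Mitoribosomes translate the few proteins encoded by mitochondrial DNA, which are core subunits of the respiratory chain and ATP synthase. All of their proteins are encoded in the nucleus, made by cytosolic ribosomes and imported, whereas their ribosomal RNAs are transcribed inside the organelle. The small subunit binds and decodes mRNA, and the large subunit forms peptide bonds and holds the exit tunnel through which the new protein reaches the inner membrane. Part of the proteins descend from bacterial ribosomal proteins and the others were added during eukaryotic evolution. NRF1, ETS-family factors such as GABP, and YY1 are known activators of many nuclear genes for mitochondrial proteins.

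Promoters were examined first, because genes of 1 complex might share letters there. RefSeq promoters of GRCm38.p6, running from 250 bases before to 50 bases after a gene's start, were matched by symbol for 69 of the 78 members. The ETS letters CCGGAAG, searched on both strands like the others, were present in 26 of these 69 (37.7%), against 23.3% of 7665 protein-coding genes with a mean of 50 or more total reads and a promoter in the same table. The YY1 letters AAGATGGC were in 12 of 69 (17.4%), against 6.14%. The palindromic NRF1 run of 10 letters, GCGCATGC followed by GC, was in 3 of 69 (4.35%), against 2.78%, and its first 8 letters alone, a search chosen after the first had been seen, were in 8 of 69 (11.6%), against 6.91%. Every match to the longer NRF1 run is also a match to the shorter one, and the ETS and YY1 letters can share AAG. At least 1 of the ETS, YY1 and longer NRF1 runs was found in 37 of 69 members (53.6%), against 30% of the protein-coding genes. By subunit the ETS letters were in 15 of 43 large and 11 of 26 small subunit genes, and the YY1 letters in 6 of 43 and 6 of 26. These are matches of letters and not shown binding sites, and no test was made of them.

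The first 4 promoters below show each of these runs in its place, and the next 4 belong to small subunit genes whose nascent reads are described further on. Each line gives the 150 bases before the RefSeq start, 5′ to 3′ on the gene's strand, with matches to the 4 runs in capitals on either strand.
Mrpl53 (2 ETS runs, chr6:83108958-83109107, forward strand): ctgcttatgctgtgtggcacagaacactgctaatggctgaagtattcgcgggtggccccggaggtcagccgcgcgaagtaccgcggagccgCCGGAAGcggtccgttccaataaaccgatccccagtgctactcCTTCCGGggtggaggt
Mrps11 (YY1 run, chr7:78782981-78783130, forward strand): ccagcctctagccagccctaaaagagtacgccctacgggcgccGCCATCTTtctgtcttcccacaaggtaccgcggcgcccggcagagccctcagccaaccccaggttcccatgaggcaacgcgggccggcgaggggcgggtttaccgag
Mrpl32 (NRF1 runs, chr13:14613038-14613187, reverse strand): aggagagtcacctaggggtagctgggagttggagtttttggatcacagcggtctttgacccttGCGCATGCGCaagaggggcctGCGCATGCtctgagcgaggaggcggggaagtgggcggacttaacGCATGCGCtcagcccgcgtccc
Mrpl33 (short NRF1 run, chr5:31613801-31613950, forward strand): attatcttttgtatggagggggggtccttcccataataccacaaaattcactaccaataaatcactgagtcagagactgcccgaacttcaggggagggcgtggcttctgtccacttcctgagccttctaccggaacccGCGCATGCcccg
Mrps10 (chr17:47369047-47369196, forward strand): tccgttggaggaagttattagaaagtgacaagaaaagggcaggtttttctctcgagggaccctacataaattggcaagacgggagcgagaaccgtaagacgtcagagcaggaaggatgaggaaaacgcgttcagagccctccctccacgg
Mrps33 (chr6:39810937-39811086, reverse strand): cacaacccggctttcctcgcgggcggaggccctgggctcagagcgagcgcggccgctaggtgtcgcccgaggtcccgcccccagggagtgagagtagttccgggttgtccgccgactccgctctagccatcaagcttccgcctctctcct
Mrps18b (chr17:35916441-35916590, reverse strand): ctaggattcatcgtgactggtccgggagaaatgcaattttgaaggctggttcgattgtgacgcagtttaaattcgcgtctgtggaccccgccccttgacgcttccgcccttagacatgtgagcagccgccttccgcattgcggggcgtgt
Mrps17 (chr5:129715347-129715496, forward strand): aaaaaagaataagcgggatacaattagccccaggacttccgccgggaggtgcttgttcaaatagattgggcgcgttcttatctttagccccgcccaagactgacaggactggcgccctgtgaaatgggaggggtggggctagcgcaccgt
The last 4 windows held none of the runs in these 150 bases. In the full windows searched, Mrps33 had the ETS letters, Mrps18b had the ETS letters and the short NRF1 run, and Mrps10 and Mrps17 had none. The RefSeq starts used here are not always the starts of the GENCODE loci given elsewhere in this report. The windows of Mrps10 and Mrpl33 lie wholly inside their GENCODE loci, and some of the others partly.

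The libraries held 17436397 to 41779882 total reads and 552042 to 2722812 nascent reads, the nascent reads being 1.88% to 7.11% of the total. Members took 97816 to 229701 of the total reads and 2523 to 15418 of the nascent reads. The microglial genes Ctss, Fcer1g, Cd68, Csf1r and Trem2 had means of 27197, 24930, 8309, 5134 and 3618 total reads, whereas P2ry12 and Tmem119, markers of resting microglia in tissue, had 122 and 15.3. Snap25 and Stmn2 of neurons, Gfap and Aldh1l1 of astrocytes and Mog and Mag of oligodendrocytes were at 0 reads in all 12 libraries. Of 5 oligodendrocyte markers Mbp had a mean of 682 reads, and of 5 endothelial markers Kdr had 3732 with Cdh5, Tek and Cldn5 at 0. C13 with sham replicate 3 and DMSO with aggregates replicate 3 lay apart from the other libraries on the first principal component, which held 16.2% of the variance in total and 17.4% in nascent RNA. These 2 libraries also had the lowest nascent share of member reads relative to the whole library, at ratios of 0.724 and 0.787 against up to 1.22 elsewhere. The share of total reads from the 2 mitochondrial rRNAs ran from 1.17% to 3.70% and was highest in C13 with sham replicate 3. A drop in the number of cells and less RNA per cell cannot be told apart in such bulk samples.

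Members together took about the same fraction of total reads in all 4 groups, within the spread of the libraries. For DMSO with sham they made up 0.549% ± 0.0269 (SD, n = 3), for DMSO with aggregates 0.512% ± 0.0488, for C13 with sham 0.556% ± 0.0475 and for C13 with aggregates 0.537% ± 0.0516. Of nascent reads they took 0.574% ± 0.00844, 0.527% ± 0.159, 0.517% ± 0.142 and 0.515% ± 0.0203 in the same order. The ranges of the 4 groups overlapped in the total table. In the nascent table DMSO with sham (0.566% to 0.583%) lay above C13 with aggregates (0.491% to 0.527%), and all other pairs of groups overlapped. The spread of single members was much wider in nascent than in total RNA, with a median coefficient of variation within groups of 22.8% in total and 88.6% in nascent CPM, the reads per library size after scaling by the TMM method within each table. Nascent reads were present in all 12 libraries for 41 members, and 37 members had none in at least 1 library. Mrpl33 was the steadiest member in nascent RNA, at 26.1%.

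Read counts of 3′-end libraries do not depend on transcript length, so the CPM of members can be set side by side. Members whose counts share a factor, named at the end of this paragraph, are an exception. Mrps17, the counterpart of a bacterial protein that binds small subunit rRNA, had the highest mean at 383 CPM of total RNA. Mrps10, which lies in the head of the small subunit, followed with 267 CPM. Mrpl12, a protein of the mobile stalk that recruits translation factors and that also binds the mitochondrial RNA polymerase, had 262 CPM. Mrpl20, a large subunit assembly protein, had 242 CPM, Mrpl24 of the exit tunnel rim 208 CPM and Mrps21 of the small subunit 160 CPM. Between Mrps10, Mrpl12 and Mrpl20 the order of means was smaller than the spread over libraries, since the libraries of Mrps10 ran from 177 to 354 CPM, those of Mrpl12 from 195 to 330.4 CPM and those of Mrpl20 from 186 to 318 CPM. Mrps10 lies at chr17:47368887-47381417 and Mrps17 at chr5:129715497-129722556, both on the forward strand of GRCm38, as does Mrpl12 at chr11:120484613-120489065. All counts of Mrps10 were multiples of 4 in both tables. Those of 6 other members (Mrpl24, Mrpl23, Mrps18c, Mrpl52, Mrps18b and Mrps12) shared a factor of 2 or more. Counting error for these genes is therefore larger than their counts show. The origin of the factors is not in the sources used here. The CPM of these genes may be too high as well, so the places of Mrps10 and Mrpl24 among the highest members are uncertain.

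To ask whether TDP-43 aggregates or C13 changed the amount of these mRNAs, each of the 4 pairwise comparisons was tested over all 11827 genes kept. No member passed the threshold of adjusted p under 0.05 in any of them, nor in the averaged effects or the interaction, by edgeR's quasi-likelihood test with Benjamini-Hochberg adjustment. The background was the same, with 0% of all genes called. At an unadjusted p under 0.05, edgeR's quasi-likelihood test counted 4 of 78 members for aggregates with DMSO (background 4.36%), 6 for aggregates with C13 (8.84%), 1 for C13 with sham (6.1%) and 4 for C13 with aggregates (5.98%). For the averaged effects of aggregates and of C13 it counted 3 and 1 members (4.73% and 4.08%), and for the interaction 5 (7.96%). DESeq2, run as an alternative on all genes with at least 1 read, called 0 members in these comparisons as well (background 0.133%, 1.1%, 0.604% and 0.435%).

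With DMSO, aggregates lay on the side of lower total RNA for most members, though no single one passed the test. Of 78 members 54 had a negative and 24 a positive log2 fold change, with a median of -0.12 against -0.02 over all genes. The groups did not overlap for 9 lower and 1 higher member (background 6.41% and 5.49%). Mrpl12 had 308, 330.4 and 273 CPM for DMSO with sham, 240, 195 and 195 CPM in DMSO with aggregates, 237, 327 and 252 CPM in C13 with sham and 281, 255 and 255 CPM in C13 with aggregates. All 3 DMSO libraries with aggregates were below all 3 with sham, whereas the C13 groups overlapped each other. Its log2 fold change with DMSO was -0.53 (SE 0.18, adjusted p = 0.999 by edgeR). Mrpl53, a mitochondria-specific protein near the base of the stalk, had 113, 151 and 127 CPM in DMSO with sham and 91.6, 84.9 and 99.7 CPM in DMSO with aggregates, again without overlap, at a log2 fold change of -0.50 (SE 0.20). In the opposite direction Mrps27, an RNA-binding protein of the small subunit with pentatricopeptide repeats, had 13.7, 11.5 and 18.3 CPM with sham and 23.1, 26.4 and 19.4 CPM with aggregates, which did not overlap. Its log2 fold change was 0.66 (SE 0.30). Mrpl40 of the central protuberance had the next smallest p among members on the higher side, at 0.52 (SE 0.29), and its groups overlapped.

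With C13, aggregates gave 31 positive and 47 negative log2 fold changes, with a median of -0.05 against -0.01 over all genes. The groups did not overlap for 5 higher and 6 lower members (background 6.69% and 6.07%). Mrps26, a mitochondria-specific protein of the small subunit, had 30.3, 28.4 and 34.8 CPM in C13 with sham and 53.2, 39.3 and 52.4 CPM in C13 with aggregates, a log2 fold change of 0.63 (SE 0.24, adjusted p = 0.531 by edgeR). The low values were those of C13 with sham, because DMSO with sham had 52.0, 41.5 and 54.3 CPM and DMSO with aggregates 38.3, 56.4 and 51.2 CPM. Mrpl27, which lies near the peptidyl transferase centre, had 0.93 (SE 0.37), and Mrpl4, which lines the exit tunnel, -0.64 (SE 0.26), both without overlap. Mrpl23 at the tunnel exit had -0.59 (SE 0.26), and its groups overlapped.

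C13 with sham gave 40 positive and 38 negative log2 fold changes against DMSO with sham, with a median of 0.01. Of 29 small subunit members 21 were on the higher side and of 49 large subunit members 19. No overlap was seen for 5 higher and 1 lower member (background 4.41% and 5.72%), the lower one being Mrps26 at a log2 fold change of -0.66 (SE 0.24, adjusted p = 0.801 by edgeR). Mrps33, a small mitochondria-specific protein, had -0.46, Mrps10 0.40 and Mrpl46 of the central protuberance 0.59, each with overlapping groups. With aggregates, C13 gave 46 positive and 32 negative values with a median of 0.05, and no overlap for 7 higher and 2 lower members (background 6.97% and 6.48%). Mrpl51, a mitochondria-specific protein, had 31.1, 36.6 and 38.3 CPM in DMSO with aggregates and 73.2, 55.6 and 53.6 CPM in C13 with aggregates, at a log2 fold change of 0.78 (SE 0.28, adjusted p = 0.833 by edgeR). All C13 libraries with aggregates were above all DMSO libraries with aggregates, and DMSO with sham was at 63.3, 50.3 and 50.9 CPM. Mrpl53 was higher with C13 in the same comparison (0.48, SE 0.20), without overlap, while Mrpl23 (-0.63) overlapped and Mrps5 of the mRNA entry (-0.52) did not. The comparisons share groups, so a high or low group enters 2 of them.

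**Figure D1:**
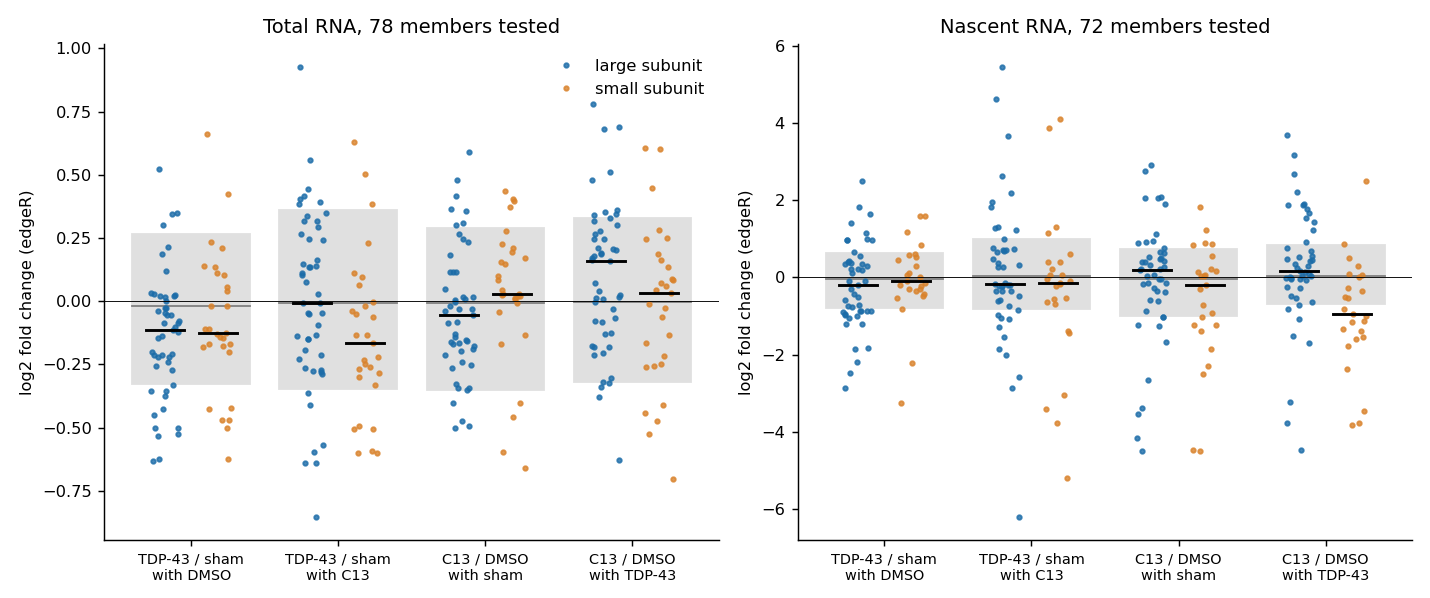
Log2 fold changes of the members by subunit in each comparison and table, with each point 1 member, a black bar at the subunit's median, a grey line at the median of all genes and a grey box over the middle 50% of all genes. Most points lie within or near the grey box in total RNA and spread far more widely in nascent RNA, where the small subunit's median for C13 with aggregates is -0.94 and the large subunit's 0.16.

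Averaged over both drug arms, aggregates gave a negative total log2 fold change for 54 of 78 members, with a median of -0.11, against -0.01 over all genes. By subunit these were 24 of 29 small and 30 of 49 large subunit members. The same was seen for 79 of 85 cytosolic ribosomal protein genes, with a median of -0.23, and for 50 of 79 nuclear genes of respiratory chain subunits, with a median of -0.10. No gene of these lists was called. Of 21 mitoribosome assembly factors 11 were on the lower side, as were 11 of 15 mitochondrial translation factors, 9 of 17 mitochondrial aminoacyl-tRNA synthetases and 3 of 11 regulators of mitochondrial transcription, also with none called.

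The nascent share of a gene is its nascent reads as a percent of its total reads. It is a relative measure of RNA made during the 90 min of labelling. How reads were called nascent is not given in the sources used here. The share is therefore not taken as the fraction of RNA made in that time. Summed over the 12 libraries, the members' shares ran from 0.614% for Mrps27 to 8.63% for Mrpl33. Their median was 2.82%, against 2.64% over 9624 protein-coding genes, and 31 of 78 members lay below the latter. The median was 2.20% for cytosolic ribosomal protein genes and 2.10% for respiratory chain subunits encoded in the nucleus. For 15 genes of the mitochondrial genome it was 42.2%, with single genes from 2.72% to 73.5%. The mean total reads of these 15 genes ran from 73.1 to 392870. Their median weighs each gene alike, so it is not the nascent share of their summed reads, which is not given here. Within libraries the median over members exceeded that over protein-coding genes in 10 of 12 libraries, that of respiratory chain subunits in 9 and that of cytosolic ribosomal proteins in 8. The median share over members moved with the library, from 0.329% to 7.27% between libraries, with a median of 2.11%. With reads pooled, members did not stand above their libraries. Their pooled share over that of the whole library had a mean of 0.988 over the 12 libraries (0.724 to 1.22). The gene sets also differed in depth, with a median of 1533 mean total reads for members and 847 for protein-coding genes.

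**Figure D2:**
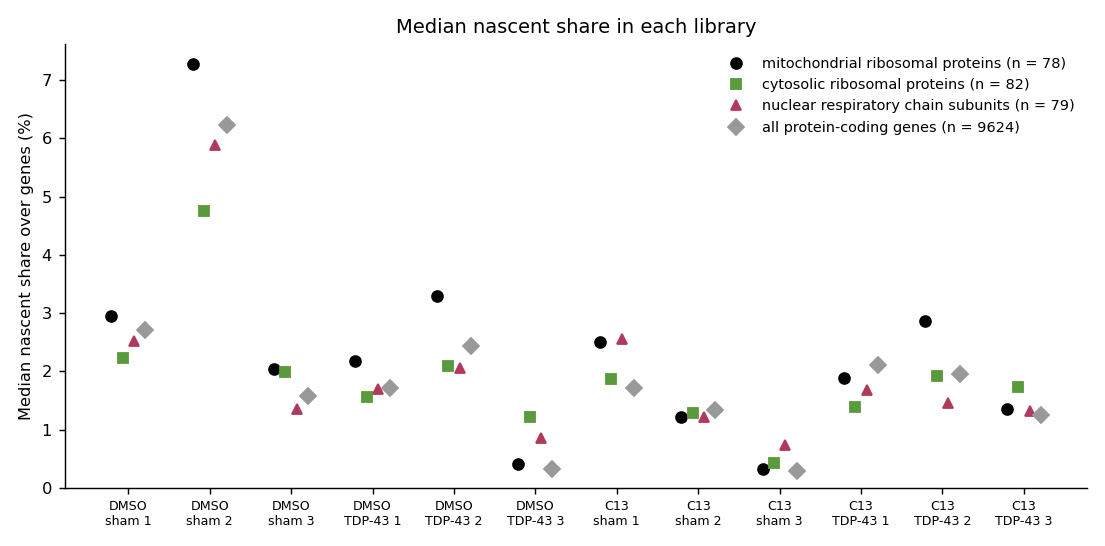
Median nascent share (percent of a gene's total reads) in each of the 12 libraries, for the members (n = 78), cytosolic ribosomal proteins (n = 82), nuclear respiratory chain subunits (n = 79) and all protein-coding genes (n = 9624). All 4 medians are highest in DMSO with sham replicate 2, and the members' median is above that of protein-coding genes in 10 of 12 libraries.

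Mrpl33, a small protein that contacts rRNA near the exit site for tRNA, had the highest share among the 78 when reads were pooled over libraries. It was 5.27%, 13.3% and 8.14% for DMSO with sham, 8.51%, 9.09% and 6.23% in DMSO with aggregates, 11.2%, 8.51% and 3.66% in C13 with sham and 8.92%, 7.25% and 10.2% in C13 with aggregates. The 4 groups overlapped. Its lowest and highest values rested on 62 of 1695 reads (exact Clopper-Pearson 95% interval 2.82% to 4.67%) and 557 of 4186 reads (12.3% to 14.4%), and these intervals cover counting error only. The Mrpl33 locus at chr5:31596935-31664384 on the forward strand overlaps the predicted gene Gm43809 on its own strand and Rbks on the other at its 3′ end, so reads of these genes may be mixed with it. Among members with a mean of 500 or more reads, the next highest pooled shares were those of Mrps2 (8.27%), a small subunit protein with a bacterial counterpart, Mrpl52 (8.24%) and Mrpl40 (6.41%), both of the central protuberance, and Mrpl18 (6.05%), which in bacteria binds the 5S rRNA. By the mean of the 12 library shares the order differed, with Mrps2 (8.41%) above Mrpl33 (8.35%), and Mrpl14 (5.77%), Mrpl17 (5.66%) and Mrpl41 (5.66%) above Mrpl18 (5.65%). Mrps2 ran from 3.15% to 13.7% between libraries and Mrpl52 from 0% to 18.8%. The lowest were Mrps15 (1.44%) of the small subunit, Mrpl3 (1.28%) and Mrpl27 (1.22%) near the peptidyl transferase centre, Mrps9 (1.08%) of the small subunit head and Mrps27 (0.614%). Mrps27 had no nascent read in 5 of 12 libraries. Across 69 members with a mean of 500 or more reads, Spearman's rho of the share was -0.04 with the T content of the last 250 bases and 0.06 with the mean number of total reads. These points share libraries, so the values are descriptions.

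**Figure D3:**
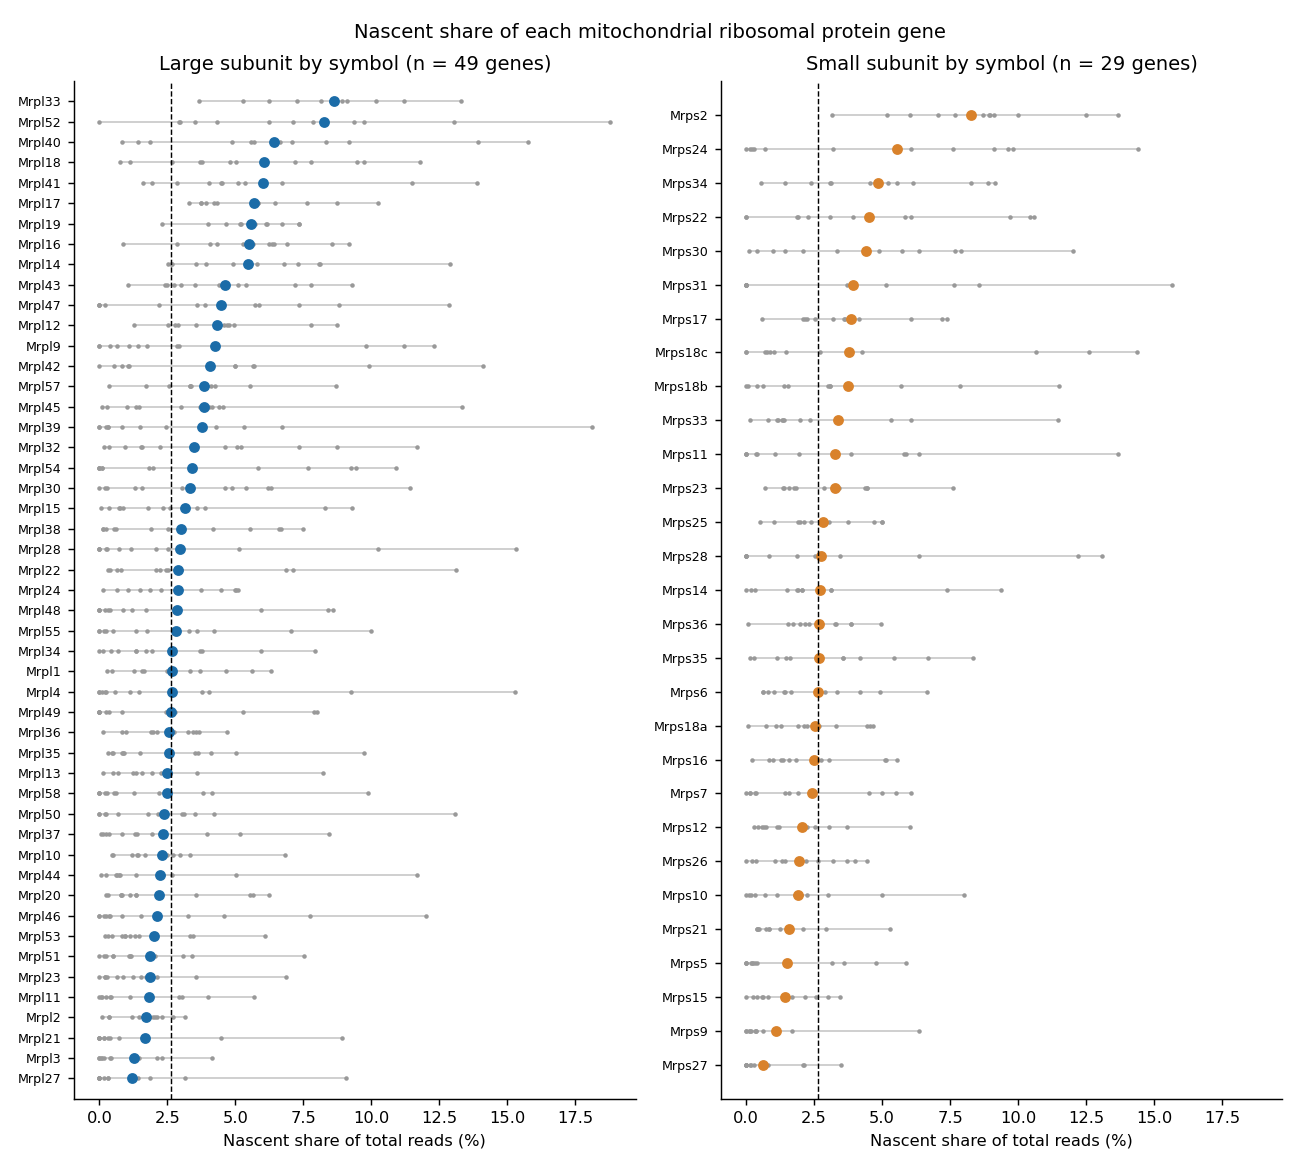
Summed nascent share of each member (percent of its total reads over the 12 libraries) as coloured points ordered within each subunit, with the 12 single libraries as grey points and a dashed line at the median of protein-coding genes, 2.64%. Mrpl33 stands at the top of the large and Mrps2 at the top of the small subunit, and the grey points of most members span the dashed line.

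A joint edgeR fit with a term for each library set nascent against unlabelled reads of each gene. Unlabelled here means total minus nascent, that is, all reads not called nascent. Its values were averaged over the 4 groups. A positive value means a larger nascent part than the 0 of the TMM scaling. This 0 was not the median gene, as the median given below shows. By edgeR's quasi-likelihood test 4 of 72 members were called higher (background 7.78%) and 24 lower (background 27.4%). The 4 were Mrpl33 at a log2 difference of 1.46 (SE 0.24, adjusted p = 0.000358), Mrps2 at 1.45 (SE 0.32, adjusted p = 0.00379), Mrpl17 of the exit tunnel at 0.84 (SE 0.24, adjusted p = 0.0161) and Mrpl19 at 0.84 (SE 0.29, adjusted p = 0.0336). On simulated data in which no gene differed, this fit placed genes on the lower side, so nothing is drawn from its lower calls. The median over all genes was -0.74 and over members -0.87. Without the library term, 7 members were called higher (background 11%) and 15 lower (18.9%). This alternative was chosen after seeing the data. The same 4 genes were among the 7, at 1.44, 1.49, 0.89 and 0.97. Its medians were -0.36 over all genes and -0.40 over members. Mrpl33, Mrpl17 and Mrpl19 each overlap another gene at their 3′ end, and Mrps2 overlaps none. The differences of this quantity between groups were called for 0 members in all 4 pairwise comparisons, as for all genes.

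In nascent RNA, 72 of 78 members (47 large and 25 small subunit) were among the 7078 genes kept, and none passed in any of the 4 pairwise comparisons, in the averaged effects or in the interaction by edgeR's quasi-likelihood test. The background was 0% of all genes, except for the averaged effect of aggregates with 0.0141%. At an unadjusted p under 0.05 edgeR counted 0 members for aggregates with DMSO (background 3.19%), 7 for aggregates with C13 (8.45%), 4 for C13 with sham (6.89%) and 5 for C13 with aggregates (4.59%). For averaged aggregates it counted 6 (5.59%) and for the interaction 7 (7.59%). DESeq2 called 0, 4, 1 and 0 members in the same order (background 0.0344%, 1.06%, 0.435% and 0.218%). The 4 were Mrps18b, Mrpl4, Mrpl28 and Mrps24 and the 1 was Mrps18b. Groups did not overlap for 1 higher and 5 lower members with aggregates and DMSO (background 3.74% and 6.56%), 4 and 4 with aggregates and C13 (7.87% and 5.23%), 5 and 8 for C13 with sham (5.13% and 9.14%) and 6 and 5 for C13 with aggregates (6.02% and 4.34%). These values come from few reads, and a difference that was not called may be absent or below what this depth can show.

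With DMSO, aggregates gave 33 positive and 39 negative nascent log2 fold changes among members, with a median of -0.13, against -0.04 over all genes. Mrpl53, lower with aggregates in total RNA as well, had 97.3, 115 and 43.3 nascent CPM with sham and 25.1, 34.0 and 11.6 CPM with aggregates, without overlap, at -1.84 (SE 1.02, adjusted p = 1.00 by edgeR). The locus overlaps the predicted gene Gm42688 on its own strand. Its total and nascent reads come from the same libraries, and the nascent reads are part of the total. Mrpl15, a large subunit protein with a bacterial counterpart, was also without overlap at -2.19 (SE 1.09). On the higher side, Mrpl51 at 2.50 (SE 1.42) and Mrps2 at 1.18 (SE 0.79) overlapped. With C13, aggregates gave 32 positive and 40 negative values. Their median of -0.16 became 0.08 without the 2 libraries that lay apart. Mrps18b was higher by 3.87 (SE 1.15) and Mrpl4 by 5.46 (SE 1.78), both without overlap, and Mrpl28, a large subunit protein, was at -6.21 (SE 1.86) and Mrps24, at the mRNA entry of the small subunit, at -5.21 (SE 1.68), all with adjusted p = 0.530 by edgeR. These sizes rest on very uneven libraries. Mrpl28 had 817, 21.2 and 143 nascent CPM in C13 with sham and 13.4, 0 and 0 in C13 with aggregates, and DMSO with sham spread from 41.6 to 473 CPM. Mrpl4 had 0, 3.54 and 0 CPM in C13 with sham, against 36.6, 11.3 and 126 CPM in C13 with aggregates.

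In nascent RNA the medians of small and large subunit genes lay on opposite sides of 0 for C13 against DMSO, a difference that was not tested. Averaged over both aggregate arms, 17 of 25 small subunit members had a negative log2 fold change, with a median of -0.71, and 26 of 47 large subunit members a positive one, with a median of 0.13, while the median over all genes was -0.02. At an unadjusted p under 0.05 edgeR's quasi-likelihood test counted 5 small and 1 large subunit member lower and none higher. The background for both directions together was 5.96% of all genes, and none of these members passed the adjusted threshold. With aggregates present, 18 of 25 small subunit members were lower, with a median of -0.94, and 29 of 47 large subunit members higher, with a median of 0.16. With sham the split was nearly even, since 13 of 25 small subunit members were lower, with a median of -0.20, and 26 of 47 large subunit members higher, with a median of 0.19. In total RNA the same averaged contrast had medians of -0.02 for the small and 0.03 for the large subunit.

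Mrps10 had the largest drop in mean nascent CPM from DMSO to C13 among the small subunit genes, though it was not called. It had 327, 177 and 302 nascent CPM for DMSO with sham, 127, 199 and 131 CPM in DMSO with aggregates, 229.9, 63.7 and 47.6 CPM in C13 with sham and 0, 25.9 and 14.5 CPM in C13 with aggregates. With aggregates all C13 libraries were below all DMSO libraries, and with sham C13 replicate 1 overlapped the DMSO range. The value of 0 was 0 of 5636 reads. Since the counts of this gene move in steps of 4, it allows a share of up to 0.213% (3 steps of 4 reads) for counting error alone. The log2 fold change for C13 with aggregates was -3.47 (SE 1.03, adjusted p = 0.990 by edgeR), and that averaged over the aggregate arms was -2.35 (SE 0.69, adjusted p = 0.801). Its total RNA overlapped between the groups with aggregates, at 226, 267 and 303 CPM in C13 with aggregates and 216, 354 and 193 CPM in DMSO with aggregates.

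Mrps18b, 1 of 3 paralogs that descend from a single bacterial small subunit protein, lies at chr17:35910379-35916389 on the reverse strand, opposite the predicted gene Gm16279. Its nascent CPM were 127, 172 and 189.7 for DMSO with sham, 23.4, 266 and 92.5 in DMSO with aggregates, 13.5, 0 and 7.94 in C13 with sham and 137, 37.2 and 145 in C13 with aggregates. The 3 libraries of C13 with sham were the lowest of the 12, and the groups with aggregates overlapped. The log2 fold change for C13 with sham was -4.48 (SE 1.17, adjusted p = 0.672 by edgeR), and the interaction was 4.22 (SE 1.49, adjusted p = 0.540). Mrps33, at chr6:39801804-39810988 on the reverse strand, had 226, 186 and 45.1 CPM for DMSO with sham, 43.5, 64.1 and 264 in DMSO with aggregates, 44.0, 74.3 and 7.94 in C13 with sham and 58.6, 35.6 and 29.0 in C13 with aggregates. The C13 libraries reached no higher than 74.3 CPM, and 3 of 6 DMSO libraries were within their range. Mrps14, a protein of the small subunit head that was named after its values were seen, had 78.3 to 131 CPM for DMSO with sham, 41.9 to 145 in DMSO with aggregates, 0 to 42.3 in C13 with sham and 12.1 to 30.8 in C13 with aggregates. Its averaged log2 fold change was -2.03 (SE 0.82) and that of Mrps33 -1.72 (SE 0.70), both with adjusted p = 0.801 by edgeR.

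Other small subunit genes went the opposite way. Mrps17 had 198.8, 346 and 329 nascent CPM for DMSO with sham, 355, 795 and 114 in DMSO with aggregates, 414, 1081 and 565 in C13 with sham and 529, 280.2 and 521 in C13 with aggregates. The C13 libraries with sham were all above the DMSO libraries with sham, at a log2 fold change of 1.24 (SE 0.63, adjusted p = 0.744 by edgeR), and the groups with aggregates overlapped. Mrpl2, which takes part in forming the peptidyl transferase centre, was also higher without overlap in that comparison, at 1.91 (SE 1.15), but its 3 values in C13 with sham ran from 60.2 to 226 CPM. When nascent counts were scaled by the sizes of the total libraries instead, the Mrps17 value was 0.21. Mrpl12, the large subunit gene with the lower total RNA after aggregates, had 202, 360.1 and 417 nascent CPM in DMSO with sham and 391, 258 and 418 in DMSO with aggregates, which overlapped.

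**Figure D4:**
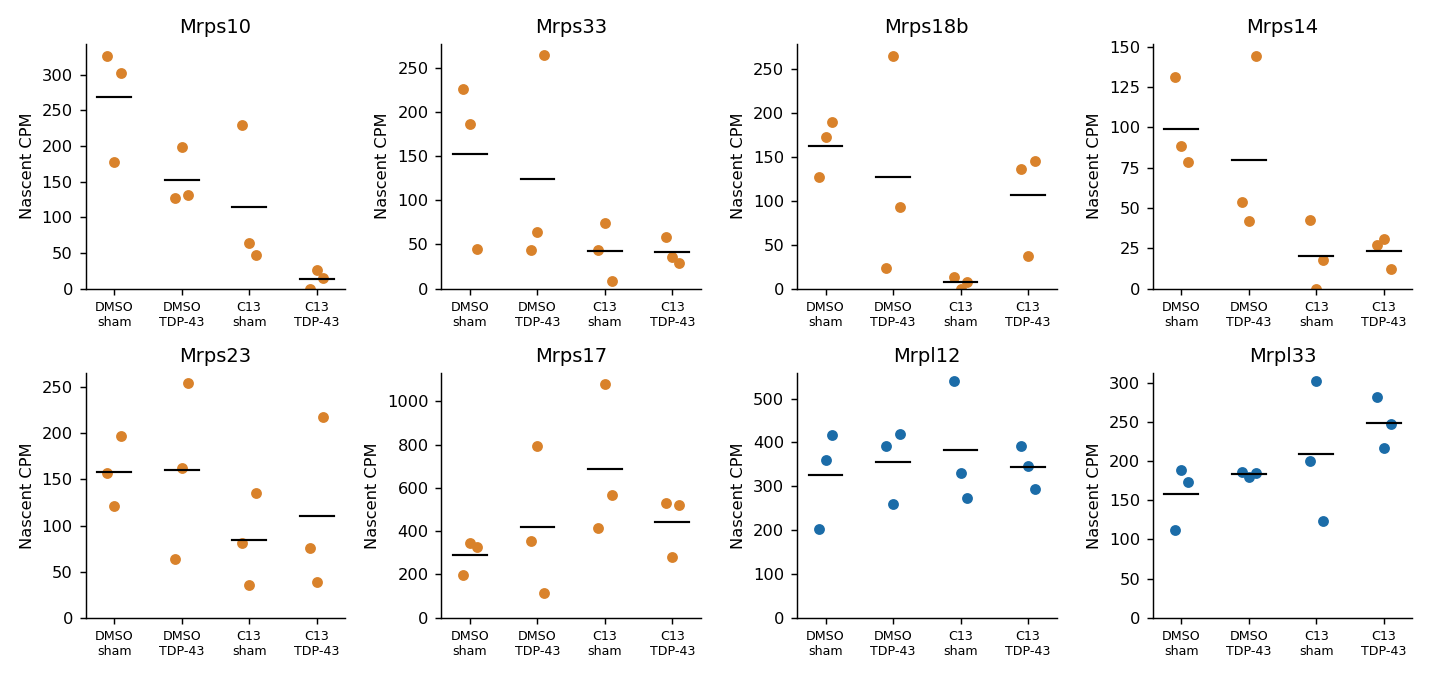
Nascent CPM per library for 8 members (Mrps10, Mrps33, Mrps18b, Mrps14, Mrps23, Mrps17, Mrpl12 and Mrpl33) in the 4 groups, with each point 1 library and a line at the mean of 3. Mrps10 is highest in DMSO with sham and lowest in C13 with aggregates, Mrps18b is lowest in C13 with sham, and the groups of Mrpl33 lie within 112 to 303 CPM.

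Summed over members, the ratio of large to small subunit nascent CPM was 1.66, 1.65 and 1.73 for DMSO with sham, 1.62, 1.55 and 1.32 in DMSO with aggregates, 2.64, 1.61 and 2.14 in C13 with sham and 2.20, 3.03 and 2.24 in C13 with aggregates. The ratio of 5 of 6 C13 libraries was above all 6 DMSO libraries, and C13 with sham replicate 2 lay within the DMSO range. The mean was 1.59 ± 0.143 (SD, n = 6) with DMSO and 2.31 ± 0.482 with C13. The difference of 0.723 was 0.703 without the 2 libraries that lay apart. Leaving out 1 library at a time gave 0.579 to 0.863. In total RNA the ratio was 1.53 ± 0.0988 with DMSO and 1.57 ± 0.095 with C13, and the ranges overlapped. Within total RNA the ratio of DMSO with aggregates (1.40 to 1.53) was below that of DMSO with sham (1.56 to 1.66) and C13 with aggregates (1.61 to 1.65) without overlap. No test was made of these ratios, since they are scores over the members.

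Both subunits contributed to the nascent ratio. The summed mean of the large subunit was 3252 CPM with DMSO and 3702 CPM with C13, with 29 members higher and 20 lower, and that of the small subunit was 2054 and 1653 CPM, with 10 higher and 19 lower. Mrps10 lost 147 CPM of the mean, from 210.5 to 63.6, Mrps33 went from 138 to 41.6, Mrps18b from 145 to 56.8, Mrps14 from 89.6 to 21.6 and Mrps23, a mitochondria-specific protein named after its values were seen, from 159 to 97.3. Mrps17 went from 356 to 565 CPM. Among large subunit members Mrpl24 gained most, from 140 to 230 CPM, followed by Mrpl52, from 126 to 187 CPM. The counts of Mrps10, Mrps18b, Mrpl24 and Mrpl52 share a factor of 2 or more. Their CPM may therefore be too high and weigh too much in these sums. The ratio was not computed without all members of this kind. Without Mrps10 the difference of the ratio was 0.635, and without Mrps10, Mrps33 and Mrps18b it was 0.473, both chosen after seeing the data. For cytosolic ribosomes the ratio of nascent Rpl to Rps reads, over 52 and 32 genes, was 1.14 to 1.82 with DMSO (median 1.46) and 0.971 to 1.59 with C13 (median 1.52).

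**Figure D5:**
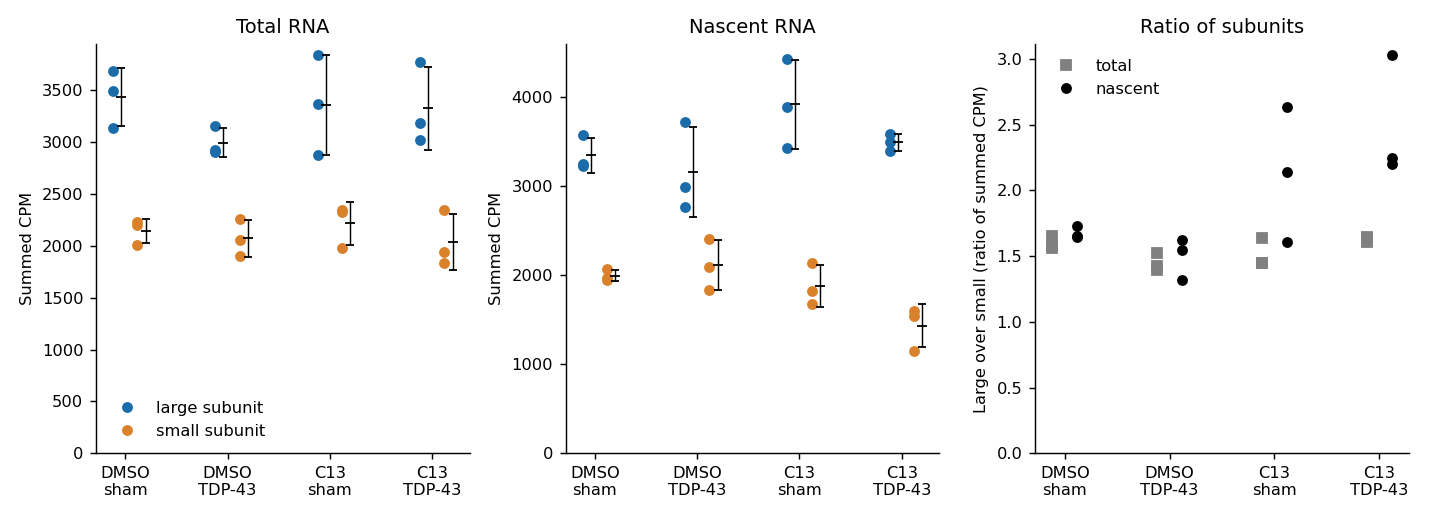
Summed CPM of large and small subunit members in total and nascent RNA for each library, with mean and SD of 3 libraries per group, and the ratio of large to small per library. In nascent RNA the ratio is 1.32 to 1.73 in the DMSO libraries and 1.61 to 3.03 in the C13 libraries, whereas total RNA gives 1.40 to 1.66 for all 12.

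Nascent share was also set side by side for the subunits, and it rests on the same nascent reads as the ratio above. Summed over the 12 libraries it was 3.51% for large and 2.97% for small subunit members. The medians over members were 2.88% and 2.71%, and the median share of large subunit members was above that of small ones in 9 of 12 libraries. By group, the share of the large subunit was 4.604% ± 2.13 (SD, n = 3) and of the small 4.46% ± 2.28 for DMSO with sham, 2.98% ± 1.34 and 2.80% ± 1.00 in DMSO with aggregates, 2.87% ± 1.49 and 2.04% ± 0.849 in C13 with sham, and 3.22% ± 0.684 and 2.10% ± 0.109 in C13 with aggregates. In C13 with aggregates the large subunit was at 2.71% or more and the small subunit at 2.17% or less in every library. In the other 3 groups the ranges of the subunits overlapped, but both subunits share the labelling of their library. Within single libraries the large minus small difference was -0.028 to 0.306 points for DMSO with sham and -0.25 to 0.413 in DMSO with aggregates. It was -0.046 to 2.02 in C13 with sham and 0.729 to 1.82 in C13 with aggregates.

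Symbols and places in the ribosome do not fully match. Mrps18a and Mrps30 are proteins of the large subunit, and Mrps36 is now known as a part of the 2-oxoglutarate dehydrogenase complex, so that 51 members belong to the large and 26 to the small subunit by place. Grouped in this way the nascent ratio was 1.77 to 1.90 in the 6 DMSO libraries and 1.88 to 3.59 in the 6 C13 libraries. Of the 3 Mrps18 paralogs, Mrps18b had a mean of 117 total CPM, Mrps18a 54.8 and Mrps18c 22.6, with shares of 3.73%, 2.53% and 3.78%. Mrps36 had 78.1 CPM and a share of 2.67%, and Mrps30 56.8 CPM and 4.42%. Mrpl58, a release factor built into the large subunit, had 31.2 CPM and 2.48%, and Mrpl42 57.6 CPM and 4.07%. None of them was called in a comparison of groups by the main edgeR fit, with its filter. In nascent RNA Mrps18b was called for C13 with sham by edgeR without the filter and by DESeq2. DESeq2 also called it for aggregates with C13.

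By role, 7 members of the central protuberance were tested in nascent RNA. All 7 were on the lower side for C13 with sham, with a median of -0.88, and all 7 on the higher side for aggregates with C13, with a median of 0.75. Both comparisons use C13 with sham, so these are not separate observations, and no member of the list was called. Over all genes, groups without overlap leaned to the same sides. For C13 with sham 9.14% of genes were lower without overlap and 5.13% higher. For aggregates with C13 7.87% were higher and 5.23% lower. Whether the list went beyond this lean was not tested. The 14 small subunit genes with bacterial counterparts had a median of -0.90 for C13 averaged over the aggregate arms, with 11 lower, and the 28 such large subunit genes had 0.18, with 16 higher. With aggregates the small subunit list had 12 of 14 lower, with a median of -1.14 and a summed mean of 765 CPM with C13 against 1203 with DMSO. With sham it had 9 of 14 lower, with a median of -0.51, while the summed mean was higher with C13, at 1332 against 1158 CPM, so the median and the sum differed in sign. The 3 stalk genes Mrpl10, Mrpl11 and Mrpl12 were all lower with aggregates in total RNA, at a median of -0.13 averaged over the drug arms. Outside the ribosome, the 15 tested genes of the mitochondrial genome had a median nascent log2 fold change for C13 of 1.16 with sham (12 higher, 3 lower) and of 0.16 with aggregates (9 higher, 6 lower), none called. C13 with sham replicate 3, which lay apart, had a summed 141519 nascent CPM for these genes, against 27566 and 43866 in the other 2 libraries of its group. In total RNA the medians were 0.36 (13 higher, 3 lower) and -0.06 (8 higher, 8 lower). The 2 mitochondrial rRNAs took 1.17% to 1.49% of total reads for DMSO with sham, 1.71% to 2.52% in DMSO with aggregates, 1.80% to 3.70% in C13 with sham and 1.29% to 1.54% in C13 with aggregates. The ranges of DMSO with aggregates and C13 with sham overlapped each other and lay above those of the other 2 groups. Its part in the member values was not tested.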

How the data were processed

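The authors deposited 2 tables of raw counts per Ensembl gene, total and nascent, for the same 12 libraries, and the submitters' processing notes name build GRCm38. How reads were aligned, counted and called nascent is not given in the sources used here. RNA was treated with iodoacetamide and made into 3′-end libraries, per the labels' protocols. No nascent count exceeded its total count. Symbols and loci came from GENCODE M21 (GRCm38), and promoters from RefSeq (GRCm38.p6). The members and lists were chosen with earlier results of these data known.

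Genes were kept by filterByExpr (11827 total, 7078 nascent), scaled by TMM within each table, which removes a global change in labelling, and tested by the quasi-likelihood test of edgeR 4.0.16 (R 4.3.3), with 12 libraries and 4 group means in 1 fit. P-values were adjusted by Benjamini-Hochberg over all genes, with a threshold of 0.05. The SE printed with an edgeR value was worked back from the test. It is the absolute log2 value divided by the square root of the F statistic, so it is approximate, most of all for genes with libraries at 0. DESeq2 1.42.0 and the other alternatives are given in the closing section. The fits were also run on simulated data, and the share of set changes that they recovered is not given here. A member that was not called, in total or in nascent RNA, is therefore not shown to be unchanged. Replicate numbers were not used to pair the libraries, since the labels state no shared day. Deviations of libraries with the same number correlated at -0.03 to 0.13, and those with different numbers at -0.17 to 0.13. Such weak correlations cannot exclude a shared day. No replicates were duplicates of each other, as chi-square over its degrees of freedom was at least 67.6 for every pair. Members were named if called, if among the 2 smallest p per direction in a pairwise comparison, by highest or lowest share, by highest CPM, or as the Mrps18 paralogs, Mrps30, Mrps36, Mrpl42 and Mrpl58.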

Additional observations from a re-analysis of the deposited data

How the results depend on the processing

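In total RNA 0 members were called under every alternative run, with or without the filter, with DESeq2, with the groups compared alone and leaving out each library. In nascent RNA 1 member was called without the filter in each of 5 comparisons, Mrps18b for C13 with sham (background 0.246%) and Mrpl28 for aggregates with C13 (0.254%), C13 with aggregates (0.0847%), averaged aggregates (0.152%) and the interaction (0.322%). DESeq2 called 4 members for aggregates with C13, 1 for C13 with sham and Mrpl4 for the interaction (background 0.695%). The cause was not tested. Over all genes, nascent calls for aggregates with C13 were 0 with edgeR, 30 without the filter and 75 with DESeq2, and total calls in the same comparison were 0, 124 and 137. A replicate block called 0 members between groups, and 4 higher and 23 lower for nascent against unlabelled reads. That average had 3 to 5 members higher and 15 to 24 lower when 1 library was left out, the 15 without C13 with sham replicate 3. Without both libraries that lay apart 10 were lower, and without the library term 7 were higher and 15 lower. Its uncalled values changed sign for Mrps17 (-0.13 with DESeq2 size factors, -0.12 to 0.22 leaving out 1 library), Mrps30 (-0.41 to 0.18 leaving out 1 library, 0.37 without the library term) and Mrpl42 (-0.65 to 0.059 leaving out 1 library, 0.29 without both libraries, 0.32 without the library term). Scaling nascent counts by the sizes of the total libraries moved the median of all genes to -0.84 and -1.02 for aggregates with DMSO and C13 with sham, with members at -0.88 and -0.87 and none called. The median of members' averaged nascent C13 effect ran from -0.28 to 0.03 when 1 library was left out. The nascent subunit ratio stayed higher with C13 under all alternatives run. Few nascent reads per member limit what could be detected.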
